A study of Paeonia lutea x Paeonia suffruticosa with 9 samples.

Results

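In floral buds of ‘High Noon’, a tree peony cultivar, 3 transcripts were examined that the study matched to flowering regulators of a model plant: ATH1 (transcript i2_HQ_HNbud_c9324/f2p0/2669), PDF2 (i3_LQ_HNbud_c2041/f1p5/3526) and PCFS4 (i3_LQ_HNbud_c3353/f1p4/3804). They were taken by their full identifiers and are 3 of the 137758 transcripts with deposited values. They also belong to a list of 26 floral development transcripts that the study chose as differentially expressed on these same libraries, so that a change in them between stages is not independent evidence. The identifiers and the model plant matches come from the study, and no sequence was examined here.

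‘High Noon’ is a reblooming hybrid of Paeonia lutea and Paeonia suffruticosa. The labels give a plant age of 5 years for every library, while the study's methods give 3 to 5 years. The labels name no treatment, and buds were sampled at 3 stages, with 3 RNA-seq libraries each: vegetative meristem (stage I, S1_1 to S1_3), floral meristem (stage II, S2_1 to S2_3) and floral organ (stage III, S3_1 to S3_3). These stage names are from the study's methods, while its figure legend describes stage II as the time when floral organs differentiated. The stage was read from sections of parallel buds, and adjacent scales and leaves were discarded, so a library holds all remaining tissues of a bud. In such bulk RNA, fewer cells of a type and less RNA per cell cannot be told apart. The labels do not say whether the libraries of a stage came from separate plants, so p values measure only the spread between these libraries.

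ATH1 is known in Arabidopsis as a homeobox gene of the BELL class of the TALE family, which acts in the shoot apical meristem and delays flowering by raising the level of the floral repressor FLC. PDF2 is known there as a homeobox gene of the HD-ZIP IV class, expressed in the outer cell layer of meristems, where it acts in epidermal identity and in floral organ formation. PCFS4 is known there as a relative of the yeast 3′ end processing factor Pcf11, which promotes flowering through the processing of the transcript of FCA, a gene that lowers FLC.

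The libraries held 20065002 to 25195520 counted fragments. By the study's quality values, every stage I library had a lower RNA integrity number and a lower share of mapped reads than any library of stages II and III. Whether this affects the comparisons with stage I was not tested. S1_3 stood apart from the other stage I libraries: over 67840 transcripts its log2 CPM (counts scaled to the library's size) differed by a root mean square of 1.53 from S1_1 and 1.56 from S1_2, against 1.03 between S1_1 and S1_2 and 0.85 to 0.93 between replicates of stages II and III. Values without S1_3 are therefore given beside the comparisons with stage I. As a check of the stage labels, 5 listed transcripts of floral organ identity genes (PI, SEP3 and SEPALLATA2) had a summed FPKM (a level relative to transcript length and sequencing depth) of 0.81 to 1.87 in S1_1 to S1_3. The sum was 8.96 to 23.8 in S2_1 to S2_3 and 57.2 to 135 in S3_1 to S3_3. Of these 5, PI c42964 and SEP3 c231904 were at 0 in all 3 stage I libraries. For 6 listed transcripts of meristem identity genes (AP1, FUL, LFY and UFO), the summed FPKM of a stage I library was 0.75 to 4.26. Stage II libraries had 9.62 to 19.05 and stage III libraries 18.57 to 37.59. LFY c105452 alone among these overlapped between stages I and II. Its highest stage I library was at 2.52, above its lowest stage II library at 2.45. The list was chosen on the same libraries, so this is a description.

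All 3 transcripts had reads in all 9 libraries and passed the filter on low counts in each comparison. They were long, at 2669 bp for ATH1, 3526 bp for PDF2 and 3804 bp for PCFS4 by their identifiers, against a median of 1654 bp for all transcripts. The expected count was fractional in all 9 libraries for each of them, so part of their reads was divided between similar transcripts by RSEM. The fewest fragments were the 72.9 of PDF2 in S3_2, which gave a CPM of 3.55 relative to the library total, with a 95% Wilson confidence interval of 2.83 to 4.47. The most were the 588 of PCFS4 in S1_1, at a CPM of 28.4 (interval 26.1 to 30.7). Intervals cover counting error only.

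**Figure D1:**
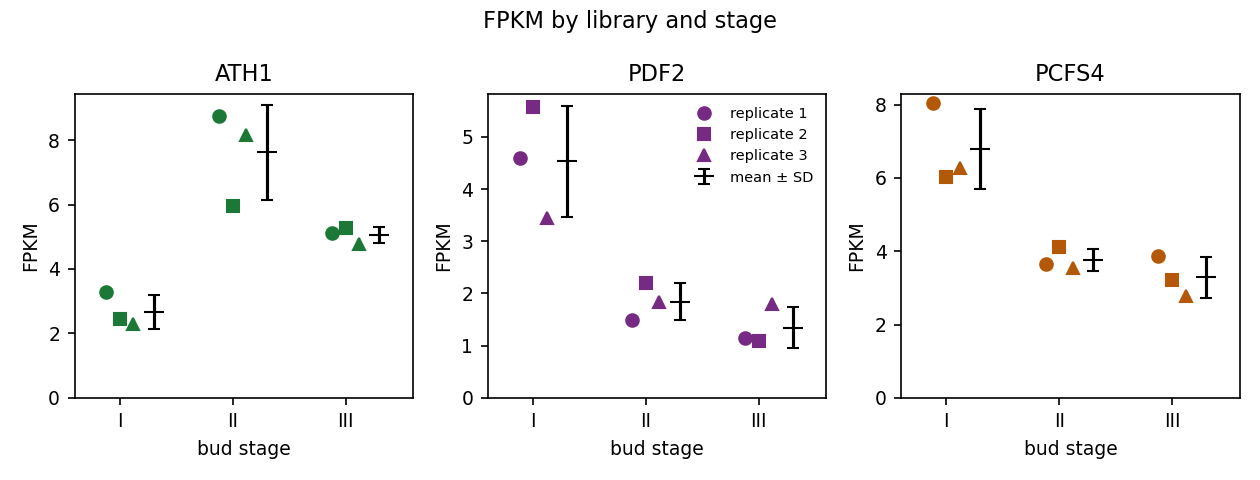
FPKM of ATH1, PDF2 and PCFS4 (y axes, each from 0) by bud stage (x axes). Each point is a library, with its shape giving the replicate number, and bars are the mean ± SD of 3 libraries. The ATH1 libraries of stage II, at 5.96 to 8.75, lie above those of the other stages, while the stage I libraries are the highest for PDF2, at 3.44 to 5.57, and for PCFS4, at 6.04 to 8.04.

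ATH1 was lowest in the vegetative meristem and highest in the floral meristem. Its FPKM was 3.28, 2.45 and 2.28 in S1_1 to S1_3, 8.75, 5.96 and 8.17 in S2_1 to S2_3, and 5.11, 5.26 and 4.78 in S3_1 to S3_3. No library of any stage overlapped with those of another stage, and the stages ranked I, III, II from low to high. The means of stages I, II and III were 2.67 ± 0.535, 7.63 ± 1.47 and 5.05 ± 0.246 (SD, n = 3 each). ATH1 thus exceeded 55.7 to 62.5% of the transcripts with reads in the libraries of stage I, 72.1 to 78.3% in those of stage II, and 67.5 to 68.8% in those of stage III.

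PDF2 was highest in the vegetative meristem. Its FPKM was 4.59, 5.57 and 3.44 in S1_1 to S1_3, 1.49, 2.20 and 1.83 in S2_1 to S2_3, and 1.15, 1.09 and 1.79 in S3_1 to S3_3. All 3 stage I libraries lay above the other 6, while stages II and III overlapped because S3_3 was above S2_1. The means of stages I, II and III were 4.53 ± 1.07, 1.84 ± 0.355 and 1.34 ± 0.388 (SD, n = 3 each). Among transcripts with reads PDF2 stood above 63.6 to 72.4% in the libraries of stage I, 44.1 to 53.0% in those of stage II, and 38.5 to 48.5% in those of stage III.

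PCFS4 was also highest in the vegetative meristem. Its FPKM was 8.04, 6.04 and 6.27 in S1_1 to S1_3, 3.64, 4.11 and 3.53 in S2_1 to S2_3, and 3.88, 3.22 and 2.77 in S3_1 to S3_3. The stage I libraries again lay above the other 6, and stages II and III overlapped because S3_1 was above S2_1 and S2_3. Over the stages the means were 6.78 ± 1.09 in I, 3.76 ± 0.308 in II and 3.29 ± 0.558 in III (SD, n = 3 each). PCFS4 stood above 73.9 to 79.3% of the transcripts with reads in the libraries of stage I, 59.6 to 65.0% in those of stage II, and 56.8 to 63.3% in those of stage III.

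The replicates of the 3 transcripts were not equally close. In stage III the SD of log2 CPM was 0.06 for ATH1, and 9.99% of the 9406 transcripts within 0.5 of its mean log2 CPM had a smaller one, their median being 0.15. For PDF2 in stage III it was 0.39, and 88.1% of 10489 such transcripts had a smaller one (median 0.18), with S3_3 the high library. For PCFS4 in stage III it was 0.25, and 81.3% of 8269 such transcripts had a smaller one (median 0.14). In stage II a smaller SD was found in 61.7% of such transcripts for ATH1, 75.4% for PDF2 and 49.3% for PCFS4. In stage I the SDs were 0.29 for ATH1, 0.34 for PDF2 and 0.24 for PCFS4, each below the median of the transcripts of like abundance (0.41, 0.44 and 0.38).

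The comparison of stage II with stage I addresses the transition to the floral meristem. ATH1 rose 2.58-fold, while PDF2 fell to 0.371 and PCFS4 to 0.506 of their stage I level in the fit. The log2 fold changes, stage II over stage I, were 1.37 (SE 0.24, q = 0.0147) for ATH1, -1.43 (SE 0.28, q = 0.0199) for PDF2 and -0.98 (SE 0.21, q = 0.0228) for PCFS4 in edgeR's quasi-likelihood test with Benjamini-Hochberg adjustment over 64662 transcripts. The 3 libraries of stage II lay on one side of the 3 of stage I for each of them. All 3 thus passed a q value under 0.05, which 20.2% of all tested transcripts did, 10.7% as higher and 9.54% as lower in stage II. The libraries lay apart for 46.6% of tested transcripts. As the study picked the list on these libraries, nothing is read from the count of 3.

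These calls were close to the threshold in edgeR. In DESeq2 the log2 fold changes were 1.39 for ATH1 (DESeq2 q = 3.43e-05), -1.40 for PDF2 (q = 0.000433) and -0.96 for PCFS4 (q = 0.0016). The values that follow are from edgeR. Without S1_3 the log2 fold changes were 1.27 for ATH1 (edgeR q = 0.0114), -1.59 for PDF2 (q = 0.00729) and -1.03 for PCFS4 (q = 0.0129). ATH1 missed the threshold without S1_2 (log2 fold change 1.30, edgeR q = 0.0507), S2_1 (1.38, q = 0.0592) or S2_3 (1.37, q = 0.0624). PDF2 missed it without any library other than S1_3, with log2 fold changes of -1.54 to -1.18 (edgeR q = 0.0503 to 0.0886). PCFS4 missed it without S1_1 (-0.84, edgeR q = 0.057), S2_1 (-0.84, q = 0.111), S2_2 (-1.02, q = 0.0806) or S2_3 (-0.87, q = 0.118). Under the criterion of the study's methods, a fold change over 2 and a q value under 0.001, edgeR called 0 of the 64662 transcripts. Of the same transcripts, 23919 had an unadjusted p under 0.05 in edgeR. DESeq2, run without the filter on low counts, called 7306 of 94603 transcripts under this criterion. ATH1 and PDF2 were among those that DESeq2 called, and PCFS4 was not. As the study picked its list on these libraries, this is not independent evidence.

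**Figure D2:**
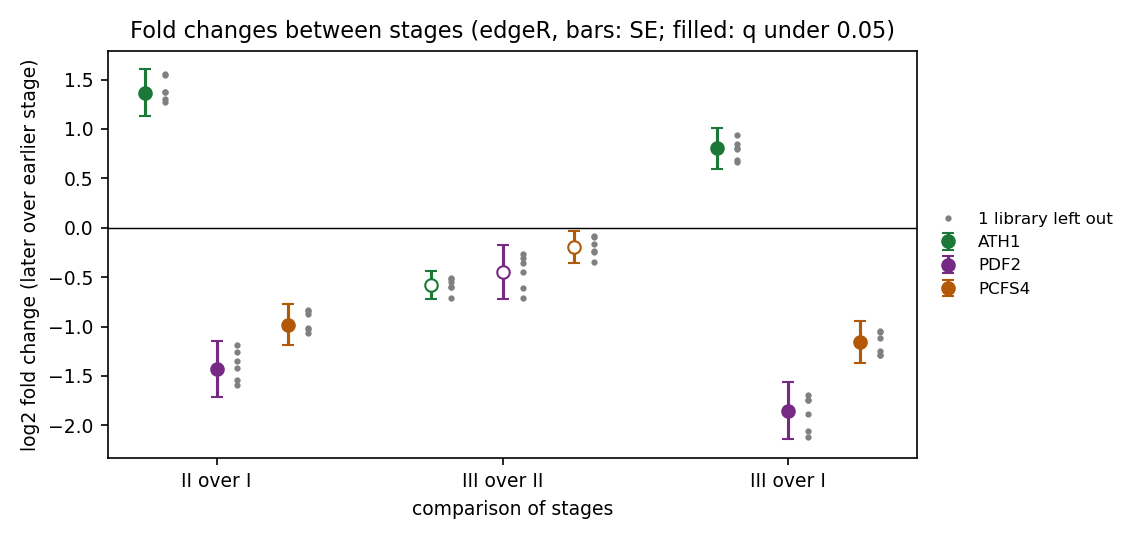
Log2 fold changes (y axis, later over earlier stage) of ATH1, PDF2 and PCFS4 in the 3 comparisons of stages (x axis), from edgeR. Coloured points with bars are the estimate ± SE with all libraries, filled where the q value was under 0.05, and grey points are the 6 fits with 1 library left out. ATH1 is above 0 and PDF2 and PCFS4 are below 0 in both comparisons with stage I, and no transcript passed the threshold between stages III and II.

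The comparison of stage III with stage II addresses the step to formed floral organs. None of the 3 transcripts passed the threshold in edgeR, where 2.17% of 64971 tested transcripts did, and ATH1 alone had an unadjusted p under 0.05, which 17.4% of tested transcripts had. The log2 fold change of ATH1, stage III over stage II, was -0.58 (SE 0.14, unadjusted p = 0.00412, edgeR q = 0.0909), which is 0.667 of the stage II level. All 3 stage III libraries of ATH1 lay below all 3 of stage II, as in 12.7% of tested transcripts. The stage II libraries of ATH1 thus lay above those of both other stages, but the difference to stage III was not past the test's threshold. It passed in DESeq2 (log2 fold change -0.58, q = 0.0217) and, in edgeR, without S2_2, the lowest stage II library (-0.71, q = 0.0452), but not under any other setting or with any other library left out, where all 9 libraries in 1 edgeR fit gave the highest q value (0.518). For PDF2 the log2 fold change was -0.45 (SE 0.27, edgeR q = 0.457) and for PCFS4 -0.20 (SE 0.16, edgeR q = 0.603), with overlapping libraries for both. With a library left out these ran for PDF2 from -0.72 (without S3_3) to -0.26 (without S2_2), and for PCFS4 from -0.34 (without S3_1) to -0.09 (without S2_2 or S3_3). A second fall of either was not detectable with these libraries.

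Between stage III and stage I, the whole span sampled, ATH1 rose 1.75-fold, and PDF2 and PCFS4 fell to 0.277 and 0.448 of the stage I level. The log2 fold changes, stage III over stage I, were 0.81 (SE 0.21, q = 0.0334) for ATH1, -1.85 (SE 0.29, q = 0.00787) for PDF2 and -1.16 (SE 0.21, q = 0.012) for PCFS4 in edgeR. All 3 again passed a q value under 0.05, against 26.6% of 65124 tested transcripts (13.8% higher and 12.7% lower), and nothing is read from this count for the same reason. The libraries lay apart for all 3 and for 50.3% of tested transcripts.

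The fall of PDF2 kept its call in each of the fits with a library left out, with log2 fold changes of -2.11 to -1.69 (edgeR q = 0.00263 to 0.0468). Without S1_3 the log2 fold changes were -2.05 for PDF2 (edgeR q = 0.00263), -1.24 for PCFS4 (q = 0.00628) and 0.67 for ATH1 (q = 0.0324). PCFS4 missed the threshold without S3_2 (-1.11, edgeR q = 0.0639) or S3_3 (-1.04, q = 0.0662). ATH1 missed it without S1_2 (0.69, edgeR q = 0.102), S3_1 (0.80, q = 0.117), S3_2 (0.81, q = 0.114) or S3_3 (0.84, q = 0.108), and with no filter on low counts (0.77, q = 0.0597). In DESeq2 the log2 fold changes were 0.79 for ATH1 (DESeq2 q = 0.0105), -1.87 for PDF2 (q = 1.44e-06) and -1.17 for PCFS4 (q = 8.46e-05). Under the study's criterion DESeq2 called 9591 of 94968 transcripts for this comparison, PDF2 and PCFS4 among them but not ATH1. As the list was picked on these libraries, nothing is read from this.

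**Figure D3:**
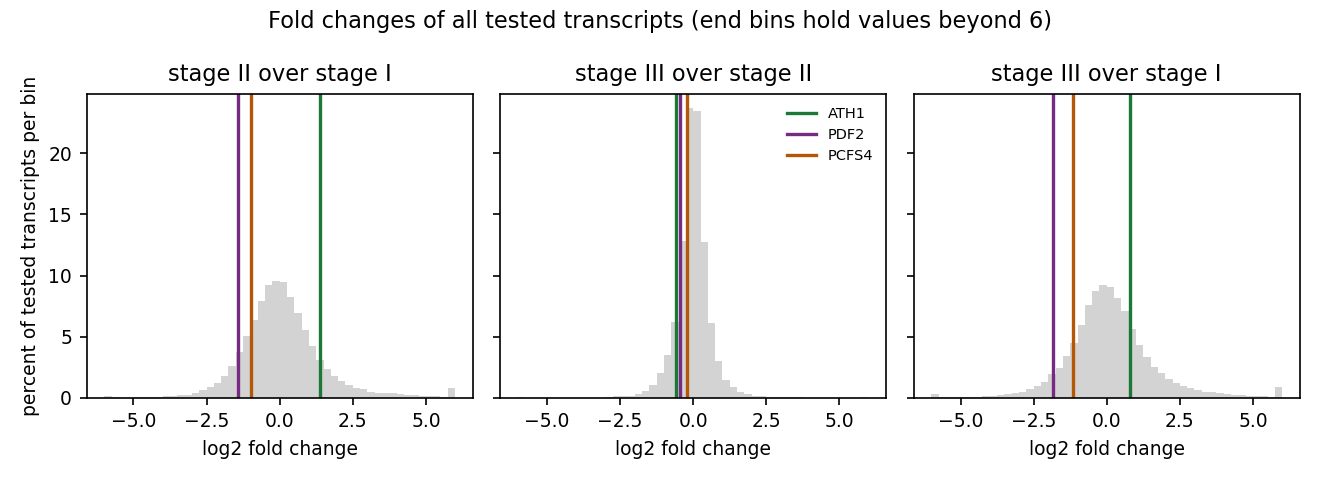
Distribution of the log2 fold changes (x axes, later over earlier stage) of all tested transcripts in the 3 comparisons, as the percent of transcripts per bin (y axis), with vertical lines at ATH1, PDF2 and PCFS4. For stage II over stage I 13.3% of tested transcripts lie above ATH1, for stage III over stage I 6.48% lie below PDF2, and for stage III over stage II PCFS4 lies near the centre, with a change at least as large in size in 61.2% of tested transcripts.

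Set against all tested transcripts, these changes were not extreme. For stage II over stage I, 23.9% of tested transcripts had a log2 fold change at least as large in size as ATH1, 22.3% as PDF2 and 37.6% as PCFS4. For stage III over stage I the shares were 47.3% for ATH1, 16.2% for PDF2 and 32.7% for PCFS4. For stage III over stage II the shares were 22.0% for ATH1, 31.04% for PDF2 and 61.2% for PCFS4.

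The mean FPKM of all 3 transcripts differed more between stages II and I than between stages III and II. Stage III of ATH1 kept 48.0% of the difference between stages II and I (41.1 to 54.2% with a library left out). For PDF2, 84.4% of the difference between stages III and I was already present in stage II (78.9 to 90.1% with a library left out), and for PCFS4 86.5% (79.8 to 93.5%). Of 67840 transcripts kept over the 9 libraries, 28.4% had their highest mean log2 CPM in stage II as ATH1 did, and 3.09% also had all libraries apart in the order of stages I, III, II. Falls of the mean in both steps, as in PDF2 and PCFS4, were found in 22.3%, and in 10.3% with the stage I libraries above all others.

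**Figure D4:**
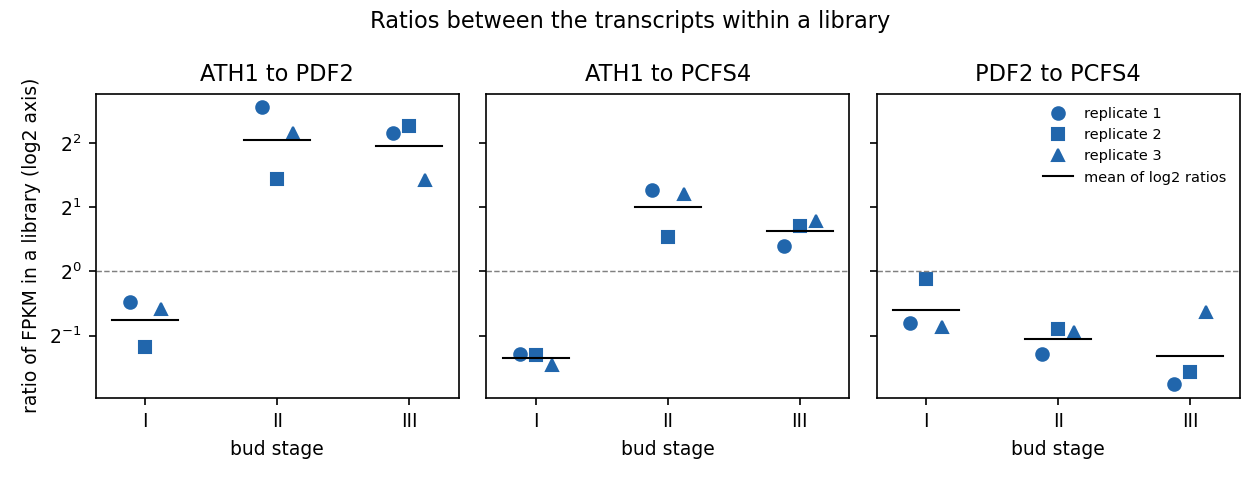
Ratio of the FPKM of 2 transcripts within each library (y axis, log2 scale, shared by the panels) by bud stage (x axes). Points are libraries, with the shape giving the replicate number, and black lines are the means of the log2 ratios. Both ratios of ATH1 lie below 1 in the stage I libraries and above 1 in those of stages II and III.

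The transcripts were also compared within each library, where no scaling between libraries enters. ATH1 was at 0.715, 0.440 and 0.663 of the FPKM of PDF2 in S1_1 to S1_3, at 5.87, 2.71 and 4.46 times it in S2_1 to S2_3, and at 4.44, 4.83 and 2.67 times it in S3_1 to S3_3. The order of these homeobox transcripts was thus reversed in every library of stages II and III relative to stage I. The mean log2 ratio of ATH1 to PDF2 was 2.05 ± 0.57 in stage II and -0.75 ± 0.38 in stage I (SD, n = 3 each), a difference of 2.80, or 6.99-fold (exact permutation test on both sides, p = 0.1, which 3 libraries against 3 cannot go below). It was 1.95 ± 0.46 in stage III, which differed from stage II by -0.10 (exact permutation p = 0.7), a difference of -0.41 to 0.16 with a library left out that changed sign without S2_1 or S3_3. Without S1_3 the log2 ratio was higher by 2.88 in stage II and by 2.78 in stage III than in stage I.

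ATH1 was at 0.408, 0.406 and 0.364 of the FPKM of PCFS4 in S1_1 to S1_3, at 2.40, 1.45 and 2.31 times it in S2_1 to S2_3, and at 1.32, 1.63 and 1.73 times it in S3_1 to S3_3. Here too the order was reversed between stage I and the later stages in every library. The log2 ratio was higher by 2.36 in stage II than in stage I and by 1.98 in stage III than in stage I (exact permutation p = 0.1 each), and stage III differed from stage II by -0.37 (exact permutation p = 0.3, overlapping libraries). This last difference was -0.61 without S2_2 and -0.24 without S2_1. Without S1_3 the differences to stage I were 2.30 for stage II and 1.93 for stage III.

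PDF2 and PCFS4 kept their order, with PDF2 the lower in all 9 libraries. PDF2 was at 0.549 to 0.922 of the FPKM of PCFS4 in S1_1 to S1_3, 0.409 to 0.535 in S2_1 to S2_3, and 0.296 to 0.646 in S3_1 to S3_3. The log2 ratio was -1.05 ± 0.21 in stage II and -0.60 ± 0.42 in stage I (SD, n = 3 each), a difference of -0.45 with libraries apart (exact permutation p = 0.1), which was -0.21 without S1_2 and -0.58 without S1_3. Between stage III and stage I it differed by -0.72 with overlapping libraries (exact permutation p = 0.3), which was -0.48 without S1_2 and -0.85 without S1_3. A steeper fall of PDF2 than of PCFS4 was therefore not shown at this number of libraries. Over the 9 tests of ratios, the smallest p adjusted by Benjamini-Hochberg was 0.18.

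Likeness of pattern was measured as the root mean square difference of log2 CPM over the 9 libraries, each transcript centred on its own mean, among 32473 other transcripts with a mean of at least 100 counts. PDF2 and PCFS4 differed by 0.46, and 1630 transcripts were nearer to PDF2 than PCFS4 was, while 6811 were nearer to PCFS4 than PDF2 was. ATH1 differed by 1.34 from PDF2 and by 1.05 from PCFS4. The nearest transcript to ATH1 was i2_LQ_HNbud_c40720/f1p0/2113, at 0.14, with an FPKM of 9.58 ± 1.23, 24.6 ± 2.70 and 17.9 ± 1.29 in stages I, II and III (SD, n = 3 each). The nearest to PDF2 was i1_LQ_HNbud_c9425/f1p1/1798, at 0.14, with 17.1 ± 4.69, 6.93 ± 0.612 and 5.37 ± 1.01 in stages I, II and III. The nearest to PCFS4 was i2_LQ_HNbud_c30820/f1p7/2049, at 0.12, with 141 ± 13.5, 81.7 ± 6.20 and 73.3 ± 4.80. The files pair none of these 3 with a gene name. Within a difference of 0.25 lay 204 transcripts for ATH1, 33 for PDF2 and 788 for PCFS4.

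Among the other 23 listed transcripts, the nearest to ATH1 was ATVGT1 c27914, matched to a vacuolar sugar transporter, at a root mean square difference of 0.36. Its FPKM was 1.82 to 2.29 in S1_1 to S1_3, 5.74 to 7.17 in S2_1 to S2_3, and 5.98 to 6.46 in S3_1 to S3_3, so its stage II and III libraries overlapped where those of ATH1 did not. The nearest to PDF2, at 0.54, and to PCFS4, at 0.62, was AGL15 c105115, matched to a MADS-box repressor of flowering. AGL15 c105115 had an FPKM of 9.42 to 17.6 in S1_1 to S1_3, 3.13 to 3.47 in S2_1 to S2_3, and 2.35 to 2.93 in S3_1 to S3_3.

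The other listed transcripts were counted by their roles. In these counts and shares, rose and fell mean a change in that direction with an edgeR q value under 0.05. Of all tested transcripts, 10.7% rose and 9.54% fell in stage II relative to stage I, 13.8% rose and 12.7% fell in stage III relative to stage I, and 2.17% passed in either direction in stage III relative to stage II. Of the 4 of flowering time (FT, a mobile promoter of flowering, and the floral repressors TEM2 and AGL15, the last with 2 transcripts), 0 rose and 2 fell in stage II relative to stage I, with a median log2 fold change of -1.73 against -0.02 for all tested transcripts. The other 2 did not pass the threshold, with log2 fold changes of 2.81 for FT (edgeR q = 0.0654) and -1.39 for TEM2 (edgeR q = 0.147). In stage III relative to stage I, 1 of the 4 rose and 1 fell. Of the 6 of meristem identity (AP1, FUL, LFY and UFO), 3 of the 5 tested rose in stage II and 4 of 6 rose in stage III, each relative to stage I, and 0 fell. Over all 23, 9 of 19 tested rose and 2 fell in stage II relative to stage I, 14 of 22 rose and 1 fell in stage III relative to stage I, and 3 of 22 rose and 0 fell in stage III relative to stage II. The direction of ATH1 relative to stage I was thus that of most listed transcripts that passed, and that of PDF2 and PCFS4 was shared by both AGL15 transcripts in stage II. These transcripts were chosen by the study on the same libraries, and the counts are a description.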

How the data were processed

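The authors filtered paired reads with ng_QC, mapped them with bowtie2 (end-to-end, sensitive) to the polished long-read transcripts, and counted them per transcript with RSEM. The expected counts deposited by the authors are fractional and not normalized, and the FPKM values the authors made from them are relative to transcript length and sequencing depth. The deposited values cover 137758 transcripts, more than the non-redundant reference that the study describes, and the reason is not given in the sources used here. No genome entered, and versions of these tools are not given there either. A read shared by similar transcripts is divided between them, which can move counts from one transcript to another.

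Stages were taken from the sample labels, and each pair was compared on its 6 libraries. Expected counts were rounded to whole numbers, filtered with filterByExpr (minimum count 10, minimum total 15), normalized by TMM and tested with the quasi-likelihood test of edgeR 4.0.16 (R 4.3.3) at a q value under 0.05. The SE was taken as the absolute log2 fold change over the root of the F statistic. Log2 CPM has a prior count of 2. Ratios within a library used FPKM and SciPy 1.17.1. Alternatives were DESeq2 1.42.0, limma 3.58.1 on log2(FPKM + 1) and log2(FPKM + 0.1), other scalings and filters, a joint fit of all 9 libraries, a block for the replicate number, and each library left out.

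The transcripts named are the 3 described, for each the nearest transcript of the whole table and of the other 23 listed, and those used to check the stages. The members and lists were chosen with earlier results of these data known.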

Additional observations from a re-analysis of the deposited data

How the results depend on the processing

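The directions of ATH1, PDF2 and PCFS4 did not change in any comparison under any of the 9 other settings or with any library left out. Of 81 values under the other settings, 75 kept their side of the threshold, as did 35 of 54 with a library left out. The labels give no shared origin to equal replicate numbers, and same-numbered libraries did not deviate together (correlations of -0.132 to 0.061, not always the highest for the own number). With the replicate block, stage II over stage I gave 1.38 for ATH1 (edgeR q = 0.066), -1.42 for PDF2 (q = 0.0698) and -0.97 for PCFS4 (q = 0.0981), and stage III over stage I gave 0.83 for ATH1 (q = 0.0865), so these 4 missed the threshold. The block called 0, 5 and 7010 transcripts for stage II over I, III over II and III over I, against 13061, 1407 and 17296 without it. For stage II over I, 20428 had an unadjusted p under 0.05 with the block in edgeR, and the low-count filter, which reads the design, then kept 68554 transcripts, against 64662 without it. For stage III over stage I of ATH1, no filter on low counts gave 0.77 (q = 0.0597), and for stage III over stage II DESeq2 gave -0.58 (q = 0.0217), which passed.

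With a library left out, the log2 fold changes for stage II over stage I were 1.27 to 1.56 for ATH1, -1.59 to -1.18 for PDF2 and -1.06 to -0.84 for PCFS4. For stage III over stage I they were 0.67 to 0.94, -2.11 to -1.69 and -1.29 to -1.04, and for stage III over stage II -0.71 to -0.51, -0.72 to -0.26 and -0.34 to -0.09. The number of transcripts called was 2163 to 21945 for stage II over I, 43 to 1129 for III over II and 5603 to 28663 for III over I, the highest of the comparisons with stage I being those without S1_3. The difference in the ATH1 to PDF2 log2 ratio between stages III and II was -0.41 to 0.16 with a library left out and changed sign without S2_1 (0.15) or S3_3 (0.16). All 9 libraries in 1 fit called 20488 for stage II over I and 6 for III over II. For III over II, DESeq2 called 4338 and limma without a filter 891. Under the study's criterion edgeR called 0, 4 and 4 transcripts. For stage II over I, DESeq2 called 7306 under it and limma on log2(FPKM + 1) 331, and 23919 had an unadjusted p under 0.05 in edgeR. Library totals alone moved the median log2 fold change of all transcripts to 0.12 for stage II over I, against -0.02 with TMM, and to 0.13 for III over I, against 0.02. For stage II over I 8272 of 13131 calls were then higher, against 6891 of 13061. The nearest transcript was another one on log2(FPKM + 1) for PDF2 and PCFS4. Depth limits the lowest counts, 72.9 to 132 fragments for PDF2 in stage III. The causes of these changes were not tested.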
